A study of Homo sapiens with 8 samples.

Results

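The change in gene expression between day 2 and day 4 of culture was followed in LX-2 cells on a soft matrix of 2 kPa. LX-2 is an immortalized human hepatic stellate cell line, labelled wild type, so the libraries came from 1 line and not from separate donors. The cells were grown on fibronectin-coated polyacrylamide hydrogels, with no drug or genetic change named for any group. RNA-seq of 4 of the 8 libraries of the series, 2 at day 2 and 2 at day 4, made up the comparison, and the other 4 came from the same line on a stiff matrix of 40 kPa at the same days. The paper describes 2 independent experiments per category for its RNA-seq, but the labels do not say that the 2 libraries of a condition came from separate cultures. The p-values therefore measure only the spread between these libraries.

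Hepatic stellate cells are the vitamin A-storing pericytes of the liver. When activated they turn into contractile myofibroblasts that express smooth muscle actin and lay down fibrillar collagen, and they also secrete chemokines, growth factor-binding proteins and matrix proteases. A compliant matrix is known to restrain this activation, whereas time in culture on plastic promotes it. Genes that the cell switches on in response to interferon form a separate program, in which STAT and IRF transcription factors bind short repeats of GAAA in promoters.

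The stellate identity of the cells was checked with marker genes. Of 12 stellate and mesenchymal markers, 10 passed the filter on low counts, and the level summed over all 12 lay between 3930 and 6970 CPM (TMM-normalised counts per library size) in the 4 soft libraries, led by VIM. LUM and DCN, which encode proteoglycans of quiescent and portal fibroblasts, were under 1 CPM in every soft library. The hepatocyte markers TTR, FGB, CYP3A4 and HNF4A, the macrophage markers CD163 and MARCO, the endothelial markers LYVE1 and CLEC4G and the biliary marker CFTR had 0 counts in all 4. Summed levels were between 29.3 and 50.7 CPM for 10 hepatocyte markers, between 91.7 and 110 CPM for 8 macrophage markers, between 2.52 and 4.78 CPM for 8 endothelial markers and between 32.8 and 74.5 CPM for 6 biliary markers. All 5 sums were higher in both day 4 libraries than in both day 2 libraries. The stellate sum went from 4305 and 3930 to 6970 and 6387 CPM, mainly through VIM. The hepatocyte sum went from 29.3 and 29.9 to 40.8 and 50.7 CPM, mainly through CPS1, and the biliary sum from 37.6 and 32.8 to 74.5 and 66.3 CPM, through SOX9 and SPP1. The macrophage sum went from 97.1 and 91.7 to 107 and 110 CPM and was mostly CD68. PTPRC, the leukocyte antigen CD45, had 0.563 and 0.647 CPM on day 2 and 2.19 and 2.88 CPM on day 4. CSF1R went the other way, from 1.83 and 1.91 to 0.886 and 0.586 CPM. CD14 had 7.21 and 5.29 CPM on day 2 and 5.32 and 4.15 CPM on day 4. The endothelial sum went from 2.96 and 2.52 to 3.82 and 4.78 CPM, mainly through TEK. The part of these levels in the results was not tested. Total counts ranged from 21429944 to 27263935 in the soft libraries, with both day 2 libraries deeper than both day 4 libraries.

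Of 14570 genes tested, 2052 (14.1%) were higher and 1933 (13.3%) were lower at day 4 than at day 2 on the soft matrix in the quasi-likelihood test of edgeR, at p-values below 0.05 after Benjamini-Hochberg adjustment. These genes are said below to have risen or fallen, and changes are log2 fold changes ± standard error, day 4 minus day 2. Of them, 617 rose and 953 fell by at least 2-fold. The 2 libraries of each day did not overlap in 5615 genes that were higher (38.5%) and 5353 genes that were lower (36.7%) at day 4. Levels are relative to the whole library, and a lower level in bulk RNA cannot tell fewer expressing cells from less RNA per cell. Scaling mattered for the balance. With libraries scaled by their totals alone, 40.3% of the genes called were higher, against 51.5% with the TMM factors used here.

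The day effect followed base composition. Across 14080 genes with a known transcript sequence, the log2 fold change fell with the GC content of the transcript, with a Spearman rho of -0.574 across genes, which are not independent replicates. Median GC content was 40.8% in the genes that rose and 59.2% in those that fell, against 48.9% in all genes tested. In the decile of genes with the lowest GC content the median log2 fold change was 0.56 and 44% of genes rose, while in the decile with the highest it was -0.65 and 39.5% fell. A trend with GC content was also present between replicates of 1 day, where its sign depends only on the order of the replicate numbers. Replicate 2 minus replicate 1 gave a rho of -0.569 within day 2, where the decile medians ran from 0.15 to -0.22, and of -0.200 within day 4. All 4 pairs of a day 4 with a day 2 library showed the trend (rho from -0.431 to -0.655), and so did the stiff matrix (-0.443). Transcript length showed little trend in the day effect (rho 0.042), but the day 4 replicates differed by length, with a rho of 0.471. On the stiff matrix the rho with length was -0.151. The soft minus the stiff day effect, which the comparisons between matrices use, had a rho of 0.419 with length and of -0.244 with GC content. The part of library preparation or sequencing in these trends was not tested, and day and run cannot be told apart.

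**Figure D1:**
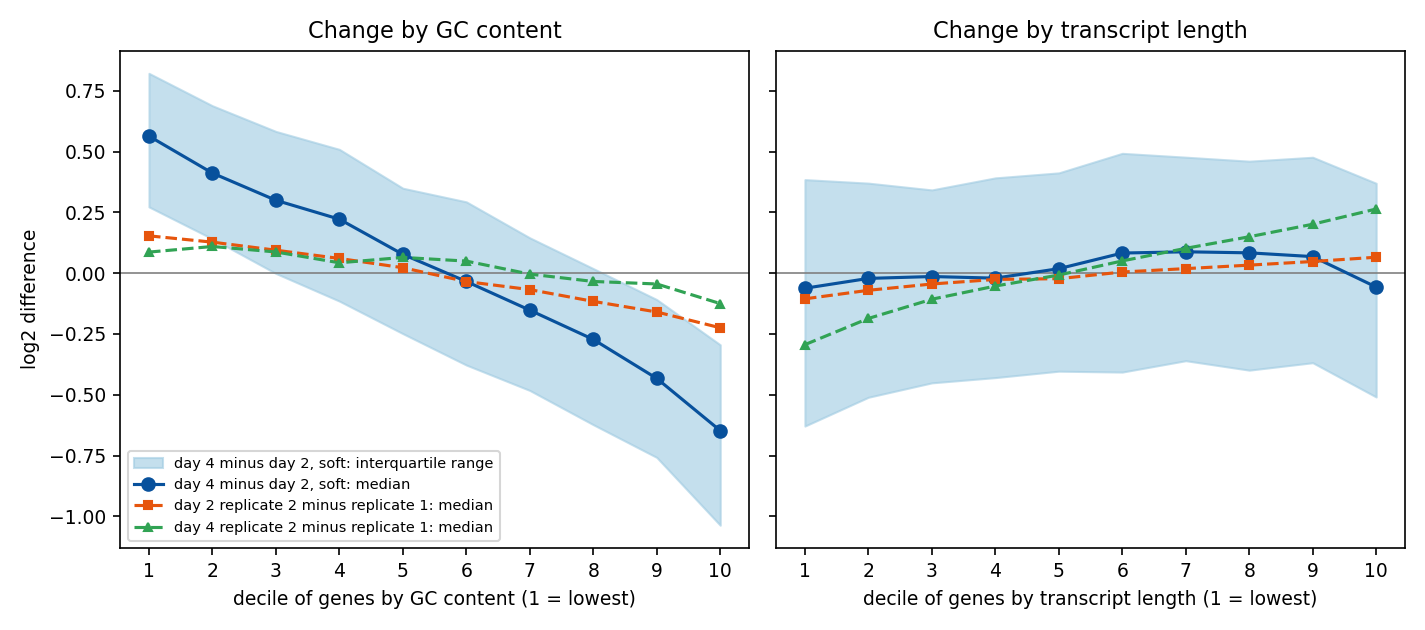
Median log2 difference (vertical axis) by decile of genes ordered by GC content (left) or transcript length (right), for day 4 minus day 2 on the soft matrix with the interquartile range shaded, and for replicate 2 minus replicate 1 within each day. The day effect runs from 0.56 in the decile of lowest GC content to -0.65 in the decile of highest. Both replicate differences also slope with GC content, over a smaller range and with a sign set by the order of the replicate numbers.

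The groups are therefore described with and without a correction. A smooth curve in GC content and log length was fitted for each library and entered the same test as an offset. Genes without a known transcript sequence had no GC content, so they received no offset. The offsets brought the GC trend to a rho of 0.019. They gave 2264 higher (15.5%) and 1892 lower genes (13%). Only 2295 genes were called in the same direction in both fits, which is 57.6% of the calls without and 55.2% of those with offsets. A real change that follows GC content would also be removed by them. The counts of each gene list stand beside the shares over all genes, 14.1% higher and 13.3% lower without and 15.5% and 13% with offsets. Members counted with offsets are not always the same genes as those counted without. Where a named gene that rose or fell was not called with offsets, its value with offsets is given too.

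Among pseudogenes, whose reads are hard to assign, falls outnumbered rises. Of 239 pseudogenes tested, 82 (34.3%) fell and 9 (3.77%) rose, with a median log2 fold change of -0.63, and the count with offsets was 77 and 9. On the stiff matrix the median was -0.80. Among 64 protein-coding genes that share at least 50% of their exon bases with another gene on the same strand, 19 fell and 2 rose, a threshold chosen after the values were seen. Of 105 genes that fell by over 8-fold, 17 were pseudogenes and 18 had no match in the annotation. Another 51 were protein-coding, of which 14 share exon bases with another gene on the same strand. Of the 105, 85 fell on the stiff matrix too. By contrast, 13 genes rose by over 8-fold. Only 31 of the 105 falls and 2 of the 13 rises had an average log2 CPM of at least 1, so most were in genes of low counts.

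**Figure D2:**
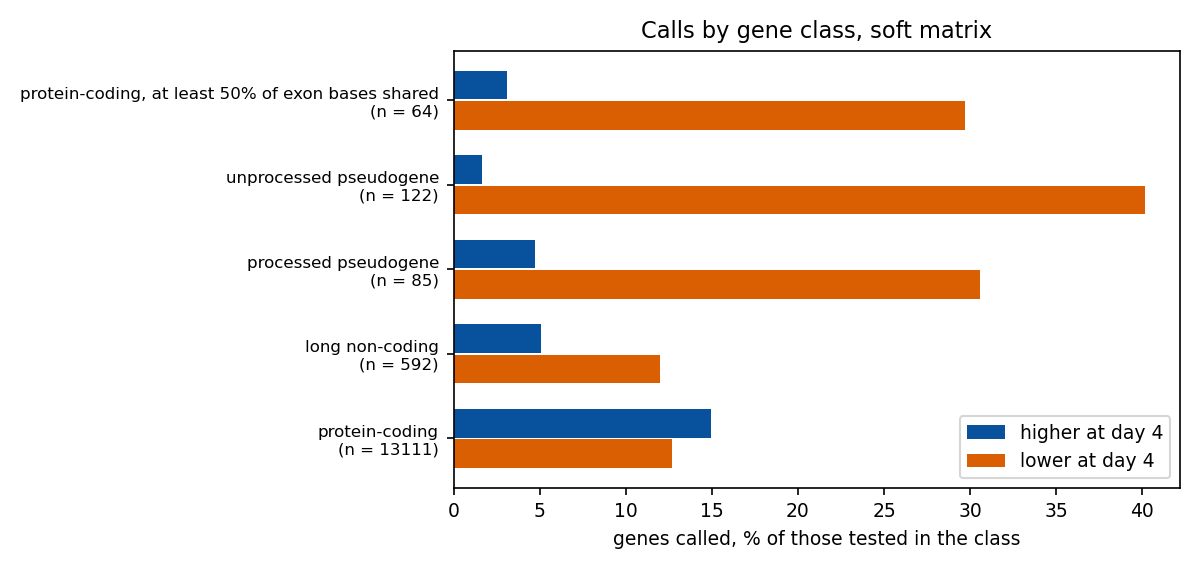
Percentage of tested genes called higher (blue) or lower (orange) at day 4 on the soft matrix, by gene class, with the number of genes tested in each class (n). Pseudogenes and protein-coding genes with at least 50% of exon bases shared fell far more often than they rose, whereas protein-coding genes as a whole were near balance.

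The 12 largest falls included several such genes. TPI1P3, a processed pseudogene of triosephosphate isomerase, had 4.43 and 3.78 CPM on day 2 and 0.0466 and 0 CPM on day 4 (change -7.18 ± 0.63, adjusted p = 0.0014). TXNDC5, an endoplasmic reticulum disulfide isomerase gene on chromosome 6 of GRCh37 (hg19) from 7881750 to 7911021, went from 681 and 450 counts to 3 and 6. The gene shares 60.9% of its exon bases with the read-through gene BLOC1S5-TXNDC5, which had 0 counts in every library. The same pattern held for RPS10, a small-subunit ribosomal protein gene, with 276 and 231 counts on day 2 and 27 and 27 on day 4, whose joint gene RPS10-NUDT3 was at 0. RPL17, ATP5E and ATP5J2 also fell and also have a joint gene at 0 counts; these pairs were looked up after the falls were seen. KRTAP2-1 and KRTAP2-2, near-identical hair keratin-associated genes, ATAD3C, PABPC3, HERC2P3, which is named as a pseudogene, MIR3687, C9orf129, LOC100093631 and LOC643387 made up the rest. Of these 12, MIR3687 was not called with offsets (-2.50, adjusted p = 0.20). LOC100093631 and LOC643387 had no GC content, so their calls with offsets are uncorrected. Whether counting differed between the days was not tested, and these values are uncertain as levels of single genes.

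The 12 largest rises were mostly protein-coding genes, and each was also called with offsets. RPPH1 and LOC101929225 had no GC content, however, so the offsets left them uncorrected. MSTN, which encodes the growth inhibitor myostatin, rose from 0.457 and 0.324 CPM to 4.57 and 5.23 CPM (change 3.63 ± 0.39, adjusted p = 0.0017). GFRA1, the receptor for glial cell line-derived neurotrophic factor, on chromosome 10 of GRCh37 from 117816436 to 118036315, stood at 12.4 and 12.7 CPM on day 2 and at 79.6 and 88.7 CPM on day 4. The change was 2.75 ± 0.18 (adjusted p = 0.001) and the days were far apart. IGFBP5, a secreted binding protein of insulin-like growth factors, went from 20.3 and 19.1 CPM to 85.1 and 111 CPM, a change of 2.32 (adjusted p = 0.0023). TLL1, a tolloid-like protease that processes procollagen, had 2.78 and 3.02 CPM against 13.1 and 18.5 CPM. SPP1, the secreted matrix glycoprotein osteopontin, rose by 2.38 on the log2 scale from below 1 CPM. DCDC2, FSTL5 and the non-coding RNA DIRC3 rose by 2.81, 2.40 and 2.39, and MIR221 and LOC101929225 by 2.94 and 2.47. RPPH1, the RNA of ribonuclease P, passed at 3.15 but lost its call whenever 1 library was left out.

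VCAM1, an adhesion receptor for leukocytes on chromosome 1 of GRCh37 from 101185298 to 101204601, belonged to these rises and to the inflammatory genes. It stood at 2.74 and 2.45 CPM on day 2 and at 18.8 and 20.1 CPM on day 4, a change of 2.90 ± 0.40 (adjusted p = 0.0035). On the stiff matrix the 4 libraries ranged from 0.288 to 1.26 CPM, and the day effect was -0.23 (adjusted p = 0.79). All 4 soft libraries were thus above all stiff ones.

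Among interferon-stimulated genes, 24 of the 53 tested rose on the soft matrix and 29 were not called. The list held 55 genes, and 0 fell in edgeR (at an unadjusted p under 0.05, 25 were higher and 1 lower, and DESeq2 called 23 and 0), with a median log2 fold change of 0.67, beside a median of 0.02 and 14.1% rising over all genes. With offsets 24 rose and 0 fell, 19 of them the same genes, and the median was 0.47. The list's median GC content was 44%, below that of all genes. On the stiff matrix 6 rose and 1 fell, with a median of 0.01. In 14 of the 53 genes the day effect differed between the matrices at an unadjusted p under 0.05, all with the larger effect on the soft matrix, against 1.17% of all genes in that direction. After adjustment 0 of the 53 differed in edgeR and 1 in DESeq2. The count of rises was 3 without day 2 replicate 1 and from 12 to 14 without any other soft library, with medians between 0.61 and 0.74 in all 4 cases.

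Promoters of the interferon-stimulated genes were searched for the interferon-stimulated response element, taken as 2 copies of GAAA with any 2 bases between them, on both strands. The promoters are RefSeq's on GRCh38.p14, from 250 bases before to 50 bases after the start of the gene. Of 35116 promoters, 1255 (3.57%) hold the motif, and of 44 list members with a promoter entry 26 (59.1%) do. It was present in 13 of the 18 with an entry that rose (72.2%) and in 13 of the 26 that were not called (50%). A match of letters is no evidence of binding. The promoters of 3 of the 4 named members that rose are printed, since the motif lies near their start. Capitals mark the motif or its reverse complement.
EPSTI1, chr13:42992192-42992491, minus strand: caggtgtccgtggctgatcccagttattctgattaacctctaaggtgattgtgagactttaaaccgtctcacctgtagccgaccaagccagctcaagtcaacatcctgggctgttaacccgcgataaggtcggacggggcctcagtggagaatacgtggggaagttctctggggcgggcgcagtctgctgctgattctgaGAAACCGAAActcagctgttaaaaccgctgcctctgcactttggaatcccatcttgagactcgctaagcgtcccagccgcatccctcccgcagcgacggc
IFIT1, chr10:89392373-89392672, plus strand: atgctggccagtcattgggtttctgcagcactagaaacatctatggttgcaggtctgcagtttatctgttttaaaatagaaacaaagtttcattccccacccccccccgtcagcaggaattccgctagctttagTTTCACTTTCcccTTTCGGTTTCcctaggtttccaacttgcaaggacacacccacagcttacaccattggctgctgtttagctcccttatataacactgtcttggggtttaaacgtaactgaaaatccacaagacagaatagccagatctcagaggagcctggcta
DTX3L, chr3:122564088-122564387, plus strand: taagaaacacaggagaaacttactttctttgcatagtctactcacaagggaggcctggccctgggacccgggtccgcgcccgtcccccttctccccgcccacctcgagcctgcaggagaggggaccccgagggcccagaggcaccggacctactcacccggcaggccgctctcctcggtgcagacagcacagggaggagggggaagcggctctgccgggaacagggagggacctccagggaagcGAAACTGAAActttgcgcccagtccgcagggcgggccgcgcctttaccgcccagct

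EPSTI1, an interferon-response gene of epithelial-stromal interaction, stood at 1.90 and 2.63 CPM on day 2 and at 8.21 and 8.92 CPM on day 4 (change 1.92 ± 0.23, adjusted p = 0.0024). IFIT1, which binds viral RNA that lacks a host cap, rose from 20.2 and 24.5 CPM to 62.5 and 61.6 CPM, a change of 1.47 (adjusted p = 0.0016). Its promoter holds 2 copies of the motif, at 116 and 103 bases before the start. DTX3L, a ubiquitin ligase of interferon signalling, went from 12.2 and 10.9 CPM to 27.7 and 31.6 CPM, a change of 1.35. Its motif begins 6 bases before the start and spans it. XAF1, a pro-apoptotic interferon target, rose by 1.39. These 4 genes were called with offsets, and IFIT1, DTX3L and XAF1 also rose on the stiff matrix, by 0.87, 0.92 and 1.06. OASL, an oligoadenylate synthetase-like antiviral gene, was the 1 gene called in opposite directions on the 2 matrices and was picked out after its values were seen. It stood at 11.6 and 12.2 CPM on day 2 and at 23.1 and 21.5 CPM on day 4 of the soft matrix.

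**Figure D3:**
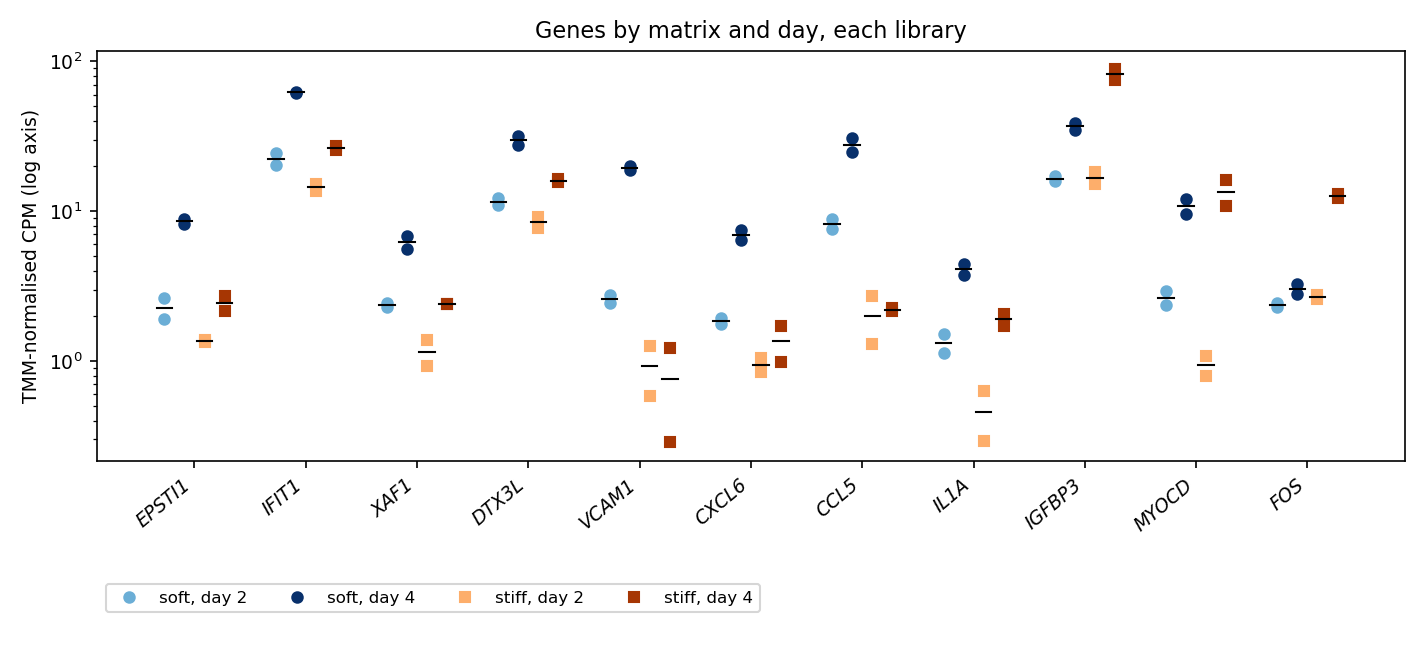
TMM-normalised CPM (log axis) of 11 genes in each of the 8 libraries; circles are soft and squares stiff, light is day 2 and dark is day 4, and the dash is the mean of 2. The 4 interferon-stimulated genes and VCAM1, CXCL6 and CCL5 are higher at day 4 than at day 2 in the soft libraries, VCAM1 is lower in every stiff library, and IGFBP3 and FOS reach higher levels in the stiff day 4 libraries.

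Of 31 NF-kB target and chemokine genes tested, 9 rose and 1 fell, with a median of 0.13, beside 14.1% rising over all genes, and with offsets 6 rose and 1 fell. On the stiff matrix 5 rose and 6 fell. CCL5, a chemokine that attracts T cells and monocytes, rose from 7.60 and 8.88 CPM to 30.7 and 25 CPM on the soft matrix (change 1.75 ± 0.27, adjusted p = 0.0049), while on the stiff matrix its day effect was 0.13 (adjusted p = 0.80). CXCL6, which recruits neutrophils, went from 1.94 and 1.76 CPM to 7.51 and 6.40 CPM. IL1A, the cytokine interleukin-1 alpha, rose by 1.63 and on the stiff matrix by 2.03. BCL3, an atypical inhibitor of NF-kB, fell by 0.88, and its value was -0.12 with offsets. Without day 2 replicate 1 no gene of this list was called.

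Of 21 MHC class I and antigen-processing genes 4 rose and 1 fell, and with offsets 7 rose, beside 14.1% and 15.5% rising over all genes. None of the calls without offsets held when any 1 soft library was left out. B2M, the light chain of class I molecules, went from 718 and 785 CPM to 1250 and 1090 CPM, a change of 0.64 that was 0.14 with offsets (adjusted p = 0.24). CALR, a chaperone of class I loading, rose by 0.74 and CANX by 0.81, and TAP2, a peptide transporter, fell by 0.59 and was not called with offsets (-0.12, adjusted p = 0.35). The length of TAP2 implied by the FPKM, 49213 bases, exceeds the span of the gene. The median length of the list was 7592 bases, against 3133 in all genes, so its offset results are uncertain. Of 21 complement and coagulation genes 4 rose and 0 fell in edgeR, with 0 lower at an unadjusted p under 0.05 and 0 in DESeq2, and with offsets 6 rose and 1 fell. TFPI, the inhibitor of tissue factor, rose from 14.4 and 14.6 CPM to 61.9 and 57.8 CPM, a change of 2.04 ± 0.13 (adjusted p = 0.001), and F3, tissue factor itself, rose by 1.35 from 122 and 125 CPM. SERPING1, the inhibitor of complement C1, rose by 1.45. All 3 were called with offsets.

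Of 31 genes of fibrillar collagens and other matrix proteins 6 rose and 5 fell, beside 14.1% and 13.3% over all genes. The median was 0.04. With offsets 11 rose and 1 fell, with a median of 0.33, so that the balance of the list depended on the correction. COL1A1, the main chain of type I collagen, stood at 1020 and 884 CPM on day 2 and at 616 and 756 CPM on day 4. The day 2 libraries were higher, but the change of -0.47 did not pass (adjusted p = 0.099) and was 0.15 with offsets. COL3A1 was at 16.9 and 15.4 CPM and then at 27.8 and 40.9 CPM, a change of 1.09 that did not pass (adjusted p = 0.062), and that of COL8A1 was 0.84 (adjusted p = 0.12). COL5A2 rose by 0.91, and EFEMP1, THBS1 and FBLN1, which encode matrix glycoproteins, by 1.22, 1.16 and 1.0. All of these 4 rises were called with offsets. COL6A3, a chain of the beaded-filament type VI collagen, fell from 441 and 405 CPM to 141 and 212 CPM, a change of -1.26 ± 0.34 (adjusted p = 0.029), and was called with offsets. COL16A1, a fibril-associated collagen, fell by 1.10 but was not called with offsets (-0.45, adjusted p = 0.26).

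Of 18 genes of enzymes that modify collagen 3 rose and 4 fell, beside 14.1% and 13.3% over all genes. With offsets 5 rose and 2 fell. The lysyl hydroxylase genes PLOD1 and PLOD3 fell by 0.43 and 0.64 and PLOD2 rose by 0.86, and only the rise of PLOD2 was called with offsets, where PLOD1 was at -0.06 and PLOD3 at -0.15. P4HA1, a subunit of prolyl 4-hydroxylase, rose by 0.82, while P4HA2 fell by 0.43. ADAMTS2, the procollagen N-proteinase, fell by 1.12. Of 19 basement membrane genes 2 rose and 3 fell, and with offsets 7 rose and 1 fell. LAMA4, a laminin chain of vascular and mesenchymal cells, rose from 5.70 and 5.61 CPM to 11.9 and 12.9 CPM. LAMA5, LAMB2 and AGRN, transcripts of high GC content, fell by 1.08, 0.79 and 0.82, and only LAMB2 was also called with offsets, where LAMA5 was at -0.03 and AGRN at 0.21. Of 23 metalloproteinase and TIMP genes 3 rose and 2 fell, these 5 were called with offsets too, and in all 8 rose and 3 fell with offsets. TIMP3, a matrix-bound protease inhibitor, rose from 56.1 and 55.5 CPM to 191 and 203 CPM, a change of 1.82 ± 0.12 (adjusted p = 0.001). MMP1, the interstitial collagenase, fell from 51.6 and 69.6 CPM to 18.8 and 16.9 CPM, a change of -1.76 (adjusted p = 0.0027). ADAM12 fell by 0.99, and ADAMTS1 and MMP19 rose by 1.26 and 0.76.

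**Figure D4:**
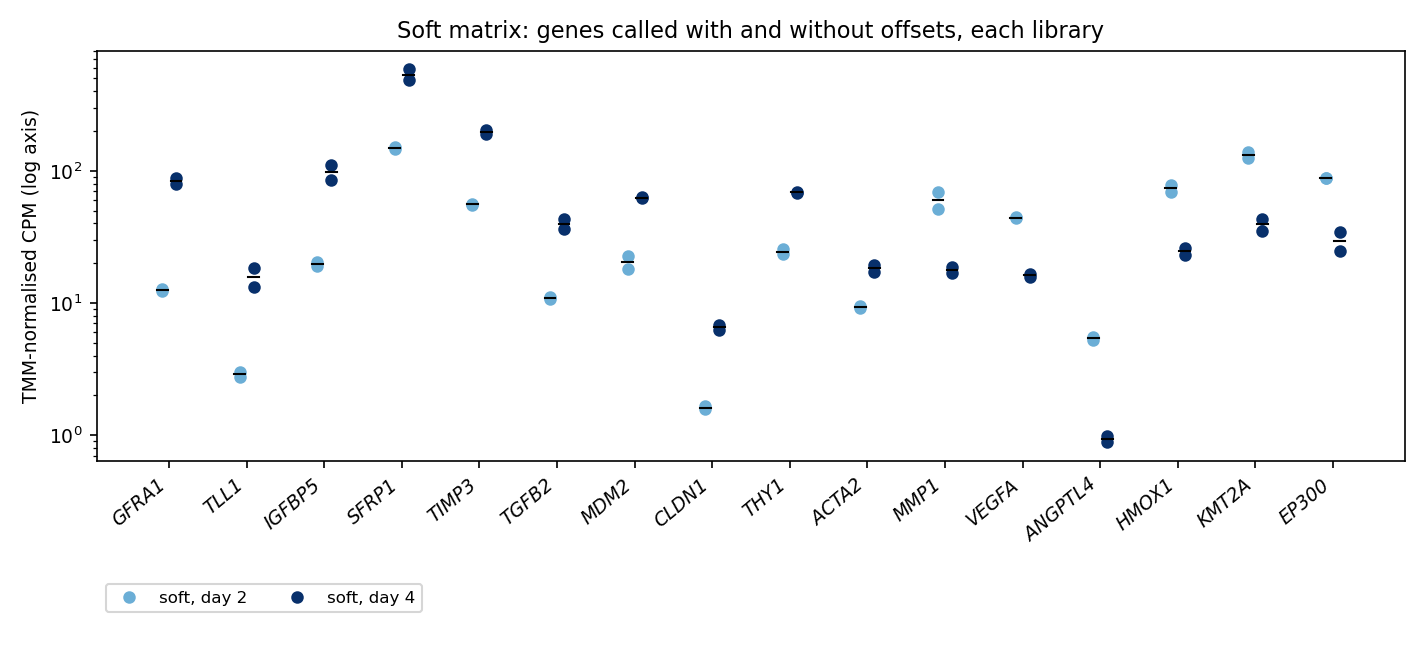
TMM-normalised CPM (log axis) of 16 of the named genes called with and without offsets, in the 2 libraries of day 2 (light) and the 2 of day 4 (dark) on the soft matrix, with a dash at each mean. No gene shown has overlapping days. The first 10 genes are higher and the last 6 are lower at day 4, with ANGPTL4 falling from above 5 CPM to under 1 CPM.

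Of 21 smooth muscle contractile genes 6 rose and 3 fell, beside 14.1% and 13.3% over all genes, with a median of -0.0021, and with offsets 9 rose and 1 fell. Without day 2 replicate 1 no gene of the list was called, and 2 to 3 rose without any other soft library. ACTA2, smooth muscle actin and the usual sign of stellate cell activation, rose from 9.54 and 9.13 CPM to 17.3 and 19.4 CPM (change 0.97 ± 0.18, adjusted p = 0.0081). ACTG2, an actin of visceral smooth muscle, rose by 1.53, and MYOCD, the coactivator of serum response factor that drives smooth muscle genes, went from 2.36 and 2.91 CPM to 9.56 and 12.1 CPM. LMOD1, a nucleator of actin filaments, rose by 1.47. SMTN and PDLIM7 fell by 0.92 and 0.63, of which PDLIM7 had a value of 0.01 with offsets. Of 24 genes of stellate identity and retinoid handling 4 rose and 1 fell, and with offsets 5 rose and 2 fell. VIM rose by 1.12, and CYP26B1, which degrades retinoic acid, rose from 4.93 and 4.32 CPM to 10.2 and 10.6 CPM. THY1, a surface marker of portal and activated fibroblasts, rose by 1.49. PDGFRB, the receptor for platelet-derived growth factor, had 24.7 and 21.0 CPM on day 2 and 18.1 and 23.6 CPM on day 4, so the days overlapped.

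Among 34 TGF-beta and BMP genes 8 rose and 6 fell, beside 14.1% and 13.3% over all genes. With offsets 7 rose and 5 fell. Only 5 rises and 1 fall were the same genes in both fits. The ligand gene TGFB2 rose from 11.1 and 10.6 CPM to 36.2 and 43.1 CPM, a change of 1.86 ± 0.19 (adjusted p = 0.0016), and the receptor gene TGFBR1 rose by 1.01. BMP4 and the activin antagonist FST rose by 0.90 and 1.16, while INHBA, an activin subunit, and the inhibitory SMAD6 fell by 1.06 and 0.79 and were not called with offsets (-0.81 and -0.41). Of 23 YAP and TAZ target genes, which respond to matrix stiffness and cell spreading, 7 rose and 2 fell, and with offsets 10 rose and 2 fell. CTGF, named CCN2 today, had 153 and 140 CPM on day 2 and 228 and 217 CPM on day 4, a change of 0.60 (adjusted p = 0.022). IGFBP3 rose by 1.16, and by 2.29 on the stiff matrix. RBMS3, an RNA-binding protein gene, rose by 1.63. Of 28 Wnt genes 6 rose and 4 fell, and with offsets 9 rose and 2 fell. SFRP1, a secreted Wnt inhibitor, went from 151 and 145 CPM to 485 and 585 CPM, a change of 1.85, DKK1, another inhibitor, rose by 1.04, and the receptor gene FZD6 rose by 1.77. AXIN1 and LRP5 fell by 0.68 and 1.06, and AXIN1 was not called with offsets (-0.06).

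Of 35 immediate-early and AP-1 genes tested, 1 rose and 8 fell, beside 13.3% falling over all genes, with a median of -0.18. With offsets 4 rose and 5 fell, with a median of 0.03. The falls were 0 without day 2 replicate 1 and from 1 to 2 without any other soft library. JUN, the AP-1 subunit, stood at 473 and 421 CPM on day 2 and at 296 and 305 CPM on day 4 (change -0.57, adjusted p = 0.021, and -0.31 with offsets). FOSL1, a partner of JUN, fell from 533 and 517 CPM to 295 and 285 CPM. NR4A1, KLF2 and MAFK fell by 0.95, 1.10 and 1.24, of which only NR4A1 was called with offsets, where KLF2 was at -0.22 and MAFK at -0.63. FOS stood at 2.29 and 2.45 CPM and then at 2.80 and 3.25 CPM, with an adjusted p of 0.20. SPRED1, an inhibitor of ERK signalling, rose by 1.12. In the Notch list 2 of 19 rose and 4 fell, and with offsets 4 rose and 3 fell. NOTCH1, the receptor, and its targets HES1 and HES4 fell by 1.20, 0.99 and 1.94, and the DNA-binding effector RBPJ rose by 1.10, of which NOTCH1 was not called with offsets (-0.37). The transcripts of this list had a median GC content of 59.2%.

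Of 25 genes of cell junctions tested, 9 rose and 1 fell, beside 14.1% and 13.3% over all genes, with a median of 0.49, and with offsets 11 rose and 2 fell, with a median of 0.44. The rises were 3 without day 2 replicate 1 and from 4 to 6 without any other soft library. CLDN1, a tight junction claudin, rose from 1.58 and 1.65 CPM to 6.30 and 6.81 CPM (change 2.01 ± 0.21, adjusted p = 0.0016). OCLN, occludin, went from 8.83 and 9.85 CPM to 26.5 and 25.9 CPM. GJA1, the gap junction protein connexin 43, rose by 1.27 and PKP2, a desmosomal plakophilin, by 1.36. The stiff matrix gave 9 rises and 1 fall. Among 23 integrin and adhesion genes 2 rose and 2 fell, and with offsets 3 rose and 3 fell. PARVA, a focal adhesion adaptor, rose by 0.56. PXN, the adaptor paxillin, and the integrin gene ITGB5 fell by 0.43 and 0.42, and neither was called with offsets (-0.0022 and -0.22).

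Cell cycle genes went both ways. Of 49 DNA replication genes 11 rose and 4 fell, beside 14.1% and 13.3% over all genes. With offsets 11 rose and 6 fell, beside 15.5% and 13% over all genes. The fits shared 6 rises and 4 falls. GINS1, of the replicative helicase, rose from 38.1 and 42.7 CPM to 88.9 and 79.5 CPM and was called in both fits, and MCM6 rose by 0.69. The polymerase genes POLD1 and POLE fell by 1.23 and 1.09, and by 0.54 and 0.66 with offsets. Of 52 mitosis genes 10 rose and 3 fell, with a median of 0.25, and with offsets 9 rose and 3 fell, with a median of 0.02. Only 3 of these rises and 0 of the falls were the same genes in both fits. CDK1 rose from 137 and 160 CPM to 289 and 283 CPM, a change of 0.94, which was 0.35 with offsets, and PLK1, a mitotic kinase, fell by 0.54 and was not called with offsets (-0.25, adjusted p = 0.22). MKI67, the proliferation antigen, had 437 and 434 CPM on day 2 and 274 and 364 CPM on day 4, with an adjusted p of 0.19, and MCM2 had an adjusted p of 0.82.

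Targets of p53 and genes of quiescence were also examined. Of 28 p53 targets 9 rose and 3 fell, beside 14.1% and 13.3% over all genes, and with offsets 10 rose and 2 fell. MDM2, the ubiquitin ligase that degrades p53, rose from 18.2 and 22.5 CPM to 61.8 and 63.6 CPM (change 1.62 ± 0.15, adjusted p = 0.0014). ZMAT3 and EDA2R rose by 1.59 and 1.45 and TP53INP1 by 1.30. CDKN1A, the cell cycle inhibitor p21 and the most studied p53 target, stood at 24.6 and 24.7 CPM and then at 22.5 and 22.5 CPM, with an adjusted p of 0.47. PHLDA3 and PLK3 fell by 1.06 and 0.67 and were not called with offsets (-0.11 and -0.21). Of 30 quiescence and FOXO genes 7 rose and 0 fell in edgeR (1 was lower at an unadjusted p under 0.05 and 0 in DESeq2), while with offsets 5 rose and 1 fell. FOXO1 and its target CCNG2 rose by 0.94 and 0.86.

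In metabolism, 7 of 37 glycolysis and hypoxia genes rose and 8 fell, beside 14.1% and 13.3% over all genes, with a median of 0.04, and with offsets 10 rose and 7 fell. ANGPTL4, a lipoprotein lipase inhibitor, fell from 5.56 and 5.25 CPM to 0.886 and 0.992 CPM, a change of -2.52 ± 0.23 (adjusted p = 0.0014). VEGFA, the angiogenic growth factor, went from 44.6 and 43.8 CPM to 15.7 and 16.7 CPM, and DDIT4, an inhibitor of mTORC1, fell by 1.18, all 3 being called with offsets. BNIP3L, a mitophagy receptor, rose by 0.68 and was not called with offsets (0.10, adjusted p = 0.41). HMOX1, heme oxygenase of the NRF2 list, fell from 77.5 and 69.6 CPM to 23.3 and 26.0 CPM, while TXNRD1 and SLC7A11 rose by 0.71 and 0.86; 6 of 28 genes of that list rose and 4 fell, and 10 and 7 with offsets. Of 25 cholesterol synthesis genes 3 rose and 3 fell, and with offsets 5 rose and 5 fell. SREBF2, the transcription factor that induces this pathway, fell by 0.79, and MSMO1 rose by 0.87. Of 22 fatty acid genes 2 rose and 3 fell, and with offsets 5 rose and 4 fell. FASN, fatty acid synthase, fell from 405 and 335 CPM to 122 and 164 CPM but had a change of -0.46 and an adjusted p of 0.11 with offsets, whereas DGAT1, which makes triglyceride, fell by 1.56 in a call that was kept.

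Among housekeeping lists, of 73 nuclear genes of the respiratory chain 8 rose and 2 fell, beside 14.1% and 13.3% over all genes. With offsets 12 rose and 6 fell. Of 31 proteasome genes 5 rose and 0 fell in edgeR (6 and 1 in DESeq2, and 2 lower at an unadjusted p under 0.05), and with offsets 7 rose and 1 fell. The balance of the 50 lysosome genes depended on the correction, since 7 rose and 5 fell without offsets and 17 rose and 3 fell with them. Of 78 cytosolic ribosomal protein genes 0 rose and 3 fell in edgeR, with a median of 0.03, while 6 were higher at an unadjusted p under 0.05 and DESeq2 called 3 higher and 4 lower. The 3 were RPS10, RPL17 and RPS27A, the first 2 of which lie in the joint loci described above. With offsets 12 rose and 7 fell. Of 41 ribosome biogenesis genes 4 rose and 3 fell (3 and 4 with offsets), of 28 autophagy genes 7 and 3 (5 and 2), and of 35 genes of the ER stress response 6 and 5 (8 and 6). HSPA1A and HSPA1B, near-identical heat shock genes whose reads cannot be told apart, each fell by 1.02, and with offsets neither was called (-0.30 and -0.34, adjusted p = 0.13 and 0.11). Their lengths implied by the FPKM, 12145 and 12601 bases, exceed the spans of these genes, so the offset values are uncertain. Of 43 clustered histone genes 2 rose and 1 fell, and with offsets 5 rose and 1 fell. Of 15 genes of the IGF axis 2 rose, IGFBP5 and IGFBP3, and STC2 fell, whereas 6 rose and 2 fell with offsets. MT1F was the 1 of 9 metallothionein and zinc genes that rose, and 4 of the 9 rose with offsets. In the clock list ARNTL and BHLHE40 fell by 0.94 and 0.77 and NR1D2 rose by 0.80, among 2 rises and 3 falls in 17 genes, with 3 of each with offsets.

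Of 66 chromatin regulator genes 4 rose and 14 fell, beside 13.3% falling over all genes, with a median of -0.33. With offsets 5 rose and 14 fell, 9 of them the same genes, and the median was -0.17. KMT2A, a histone H3 lysine 4 methyltransferase, fell from 125 and 139 CPM to 35.3 and 43.4 CPM, a change of -1.75 ± 0.19 (adjusted p = 0.0018). KMT2B and KMT2D, methyltransferases of the same family, fell by 1.69 and 1.76. EP300, the histone acetyltransferase p300, went from 88.8 and 88.5 CPM to 24.5 and 34.5 CPM, a change of -1.59 (adjusted p = 0.016). All 4 also fell with offsets and on the stiff matrix. The transcripts of these 4 are between 8471 and 19419 bases long, and the day 4 replicates differed by length, as given above; its part in these falls was not tested. SMARCA1 and SMARCA5, ATPases that slide nucleosomes, rose by 0.91 and 0.83. The falls were 3 without day 2 replicate 1 and from 4 to 7 without any other soft library.

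**Figure D5:**
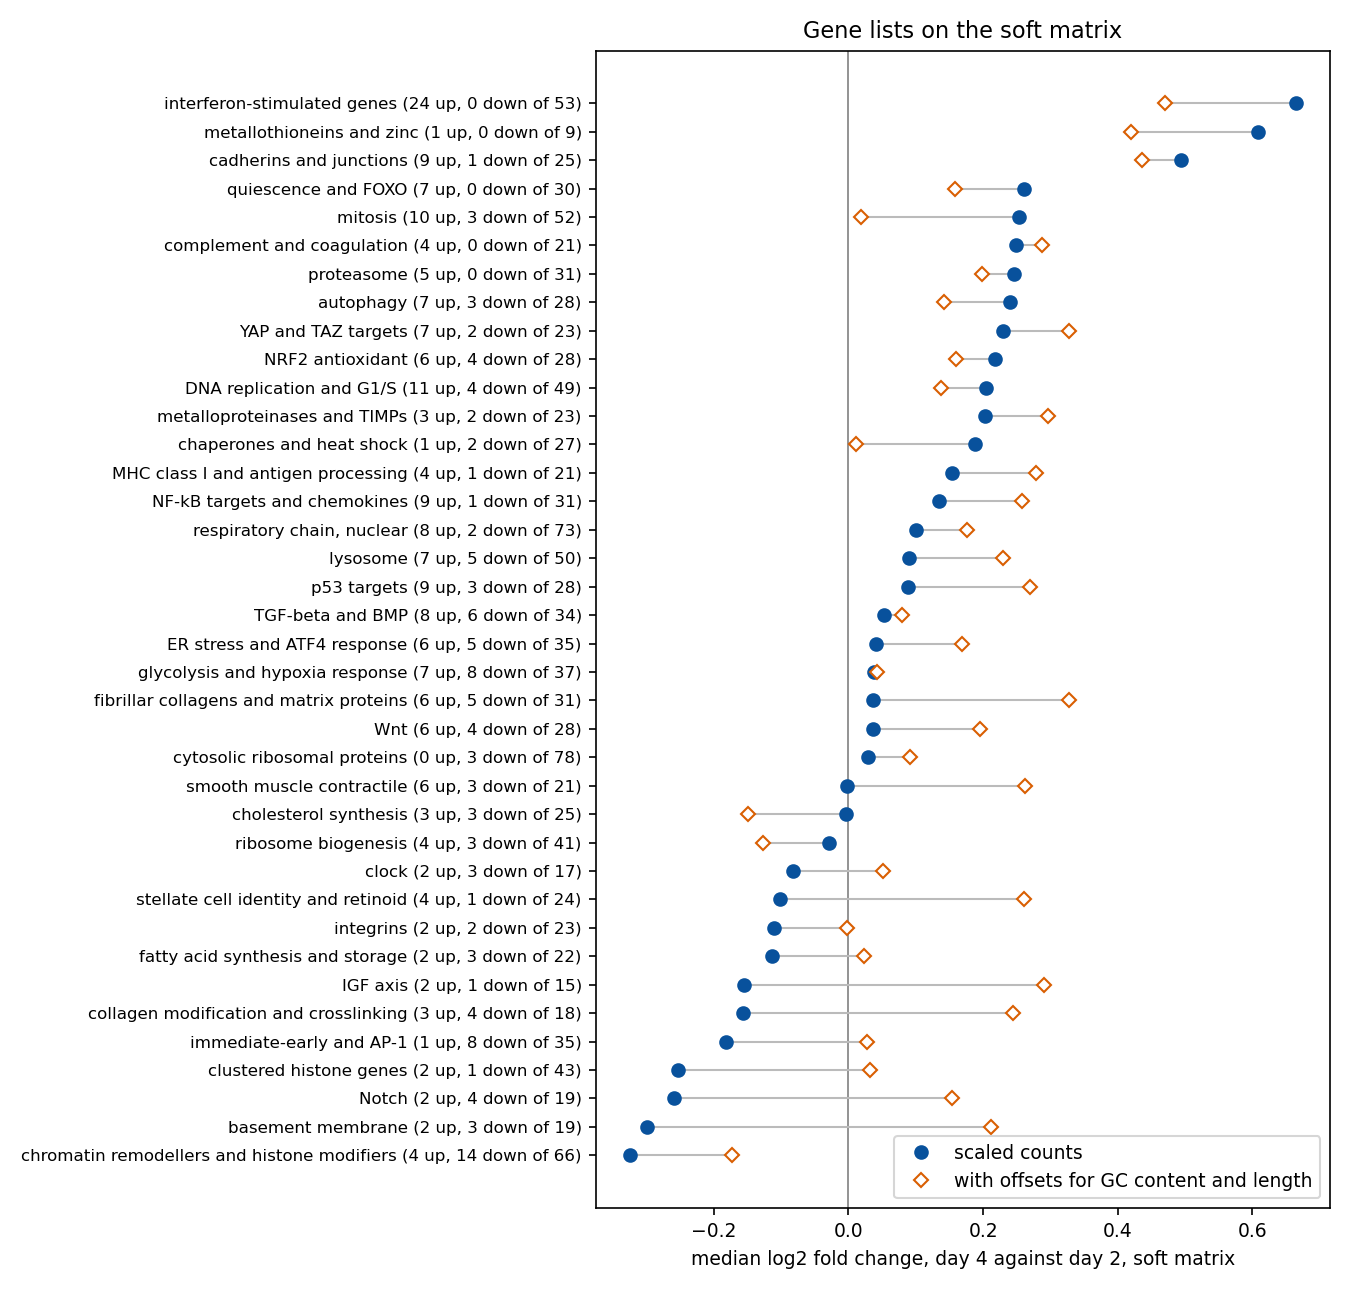
Median log2 fold change of each gene list on the soft matrix, day 4 against day 2, from scaled counts (filled circles) and with offsets for GC content and length (open diamonds), with the number of genes called up and down in the fit without offsets. The median moves across 0 with offsets in 10 of 38 lists, while interferon-stimulated genes stay highest at 0.67 and 0.47 and chromatin regulators lowest in both fits.

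The day effect on the soft matrix was set beside that on the stiff matrix, which shares no library with it. Both effects came from the same fit, however, with 1 estimate of the spread of each gene, so their calls are not independent. Both also fell with GC content (rho -0.574 and -0.443), and the calls compared here are without offsets. On the stiff matrix 2034 genes were higher (14%) and 1990 lower (13.7%). Of the genes called, 3010 were called on both matrices, 75.5% of the soft and 74.8% of the stiff calls, and 3009 of them in the same direction. A test of the difference between both effects called 0 genes at an adjusted p under 0.05 in edgeR and 3 in DESeq2, with 284 genes (1.95%) at an unadjusted p under 0.05. Libraries of the stiff matrix at day 4 had a biological coefficient of variation of 30.8%, against 12.2% for the soft matrix at day 4 and 7.52% at day 2. The genes taken for naming included 202 that rose or fell, of which 144 were called the same way with offsets and 166 on the stiff matrix. In every called gene the soft libraries of the days did not overlap, so leaving 1 out could hardly change the sign. All 202 kept their sign when any 1 soft library was left out, 46 were called each time and 83 not once.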

How the data were processed

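RNA-seq of LX-2 cells was analysed from the deposited tables. Per the labels, paired-end libraries were made with the NEBNext Ultra kit and processed with Trim Galore, STAR 2.7.1a against hg19 and HTSeq. The authors deposited raw counts per gene without normalization, and FPKM of the same genes scaled by size factors. The gene annotation and the strand setting are not given in the sources used here, so overlapping, antisense and multi-copy genes are uncertain.

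Counts were fitted in R 4.3.3 with edgeR 4.0.16 (filterByExpr, TMM, quasi-likelihood). All 8 libraries entered 1 model with 4 conditions, so groups of 2 shared 1 estimate of the spread, and the contrast was day 4 minus day 2 on the soft matrix. Of 25369 genes 14570 were tested, and an adjusted p-value under 0.05 was the threshold. Standard errors are the log2 fold change divided by the root of the F statistic. Offsets were splines with 5 degrees of freedom each in GC content and log length, per library. Limma 3.58.1 on log2(FPKM + 1) and DESeq2 1.42.0, the tool of the study, were alternatives. The edgeR and offset fits were tested on simulated data with 200 changed genes. Without a GC trend they made 6 and 7 false calls. With a day 4 trend of -0.04 on the log2 scale per percent GC they made 589 and 7. This trend was linear and the same in all day 4 libraries, a form that the splines can take up. Replicates of 1 day had no trend in the simulation, unlike those of the data. The counts of false calls therefore do not show how well the offsets work on these data. The simulated trend had a rho of -0.786 in the edgeR fit, against -0.574 in the data, and rho does not measure the slope. Coordinates came from GENCODE v44lift37 (GRCh37), where 21538 symbols had a direct match, 1493 matched an older symbol and 2338 had none. GC content came from the transcript nearest in length to that implied by the FPKM. For some genes, such as HSPA1A and TAP2, that length exceeds the span of the gene.

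The members and gene lists were chosen with earlier results of these data known. Named genes were the 12 largest rises and falls among called genes whose average log2 CPM reached 1 and whose soft libraries did not overlap between days, up to 4 called members of each list in its main direction and 2 in the other, and a fixed set of fibrosis and cell cycle genes. OASL, IFI44, DDX60 and SKIL were added after their values were seen. Not every gene that the rule names is described in the text, and some are not reported here. Totals of 19955975 to 27263935 counts per library make counting error small for genes above 10 CPM; precision is limited by having 2 libraries in each condition.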

Additional observations from a re-analysis of the deposited data

Results flagged for a closer look

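In 4 genes that rose on the soft matrix, both libraries of day 4 lay above both of day 2 on the soft matrix and below both on the stiff matrix. Of these OASL, IFI44 and DDX60 are interferon-stimulated genes. OASL had a day effect of 0.90 on the soft and -0.91 on the stiff matrix, a difference of 1.81 (standard error 0.31, unadjusted p = 0.00039). IFI44 had 0.97 and -0.45, a difference of 1.41 (unadjusted p = 0.0011). DDX60 had 0.87 and -0.60, a difference of 1.47 (unadjusted p = 0.0024). SKIL, which encodes an inhibitor of SMAD signalling, had 0.56 and -0.25, a difference of 0.81 (unadjusted p = 0.010), and its soft matrix value was -0.03 with offsets. In each the adjusted p of the difference was 0.9997 in edgeR's quasi-likelihood test, so none passed the correction.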

How the results depend on the processing

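The count of 2052 higher and 1933 lower genes moved by over 1.5 times under some settings. The soft libraries fitted alone gave 3543 higher and 3718 lower, and a 2-fold cutoff 617 and 953. Leaving out 1 soft library gave from 109 to 581 higher and from 238 to 695 lower genes, the lowest of each without day 2 replicate 1, the lone library being assumed to vary like the other groups. With offsets and 1 library left out, the counts were 609, 568, 816 and 1027 higher and 552, 575, 658 and 820 lower, without day 2 replicate 1, day 2 replicate 2, day 4 replicate 1 and day 4 replicate 2 in turn. The replicate number as a block gave 1301 higher and 1325 lower genes. Same-numbered libraries deviated together by a correlation of only 0.077, so the numbers were not taken to pair them. Chosen after seeing the data were the fit on protein-coding genes without shared exons, the offsets with 1 library left out, and the difference between the matrices with offsets or without 1 library. The difference between matrices called 3 genes in DESeq2 and 0 in the other edgeR settings run. The GC trend of -0.574 was -0.445 in DESeq2, -0.444 without a filter on low counts and 0.019 with offsets. The length trend was between -0.058 and 0.142 in all settings run. With offsets, without and with the block, the log2 fold change changed sign to 0.211 and 0.212 for AGRN, 0.0119 and 0.0115 for PDLIM7, 0.147 and 0.148 for COL1A1, 0.258 and 0.262 for MCM2, 0.198 and 0.198 for CDKN1A, 0.288 and 0.288 for PDGFRB and -0.0349 and -0.0351 for SKIL. Without 1 library it also changed sign for MCM2 (0.0619 and 0.00764, range down to -0.167) and PDGFRB (0.0208, range down to -0.340), neither of which was called. The cause of these moves was not tested. Depth limits genes near 1 CPM.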
